A study of Mus musculus with 8 samples.

Results

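Transcripts of 10 genes that blood cells express in abundance were measured in sorted bone marrow stroma. They are the globin genes Hba-a1, Hba-a2 and Hbb-bs of red cells, S100a8, S100a9, Camp and Ngp of neutrophils, Lyz2 of neutrophils and macrophages, and Igha and Igkc of plasma cells. All 10 were found by Ensembl identifier among the 52636 genes of the deposited count table. They were measured in 8 RNA-seq libraries, each from the mesenchymal stem and progenitor cells (MSPCs) of a single mouse, with 4 CTR mice (Flk2-cre+ Cxcr4 fl/+) and 4 cKO mice (Flk2-cre+ Cxcr4 fl/fl). All mice were C57BL/6 and 6 weeks old by the labels, whereas the methods give a wider and older range for the study's mice. The Cre is active from multipotent progenitors onward, so that the blood cells of cKO mice lack Cxcr4, while those of the CTR littermates carry the same transgene and keep a single intact allele. MSPCs were released from flushed marrow with collagenase, depleted of CD45+ and Ter119+ cells on magnetic beads and sorted in a double sort as CD45- Ter119- CD31- CD144- PDGFRα+ GFP+ cells, in which GFP is expressed from the Kitl locus that encodes stem cell factor. The gate thus selects against blood cells by their surface proteins.

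Globins are made in erythroid cells as paired α and β chains and bind oxygen, and their mRNA outlasts the nucleus in young red cells. S100a8 and S100a9 encode the subunits of calprotectin, a calcium-binding protein that fills the neutrophil cytosol. Camp encodes cathelicidin, an antimicrobial peptide, and Ngp encodes neutrophilic granule protein, both made while granulocytes build their secondary granules in the marrow. Lyz2 encodes the lysozyme of the myeloid lineage. Igha encodes the constant region of the IgA heavy chain and Igkc that of the κ light chain, which plasma cells transcribe at very high levels.

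Sequencing depth was alike in the libraries, with 31047344 to 38216877 counts each and 18366 to 20684 genes with a count. The MSPC markers were present, as 10 of 10 MSPC marker genes had counts in every library, and they summed to 57750 to 75060 TMM-normalized CPM (counts scaled to a library of 1000000) in CTR and 61000 to 74520 CPM in cKO. Cxcl12, the chemokine that retains blood progenitors in marrow, had a mean of 44710 CPM and Lepr, the leptin receptor, 4420 CPM. The transcript for CD45, Ptprc, had 0 to 32 counts, and the endothelial genes Pecam1 and Cdh5 had 0 to 52 and 0 to 20. Cxcr4 itself ranged from 4 to 19 counts for CTR and from 0 to 12 for cKO (log2 fold change -0.77, standard error 1.19, adjusted p = 0.998 in edgeR without a filter). It is deleted in blood cells and not in the sorted cells, so these counts are no check of the genotype labels. Titles carry a number of unstated meaning, which is 26 to 32 for libraries 2 and 4 of each genotype and 67 to 86 for libraries 1 and 3.

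Several of these genes have near copies, which bears on what a count of them means. The reads were at most 69 bases long after the start of each was trimmed, and a read from a stretch that copies share fits both. Bases of low quality were also trimmed from the read ends, and shorter reads can fit copies more often than windows of 69 bases show. In the GENCODE M21 transcripts, 512 of 742 windows of 69 bases in Hba-a1 (69.0%) also occur in Hba-a2. In Hbb-bs, 362 of 697 (51.9%) occur in Hbb-bt, another adult β-globin gene. The coding sequences of Hba-a1 and Hba-a2 are identical in 425 of 426 bases (99.8%), and those of Hbb-bs and Hbb-bt in 440 of 441. The stretches of 69 coding bases below hold the difference of each pair, which is written in capitals. Each is given 5′ to 3′ on the gene's strand (GRCm38 chr11:32284309-32284377 on the plus strand for Hba-a1, chr11:32297126-32297194 on the plus strand for Hba-a2, chr7:103826668-103826736 on the minus strand for Hbb-bs and chr7:103812659-103812727 on the minus strand for Hbb-bt).
Hba-a1: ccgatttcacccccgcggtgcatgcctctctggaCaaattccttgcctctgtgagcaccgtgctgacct
Hba-a2: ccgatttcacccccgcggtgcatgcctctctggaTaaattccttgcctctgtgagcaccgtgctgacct
Hbb-bs: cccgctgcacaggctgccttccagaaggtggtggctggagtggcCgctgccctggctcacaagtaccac
Hbb-bt: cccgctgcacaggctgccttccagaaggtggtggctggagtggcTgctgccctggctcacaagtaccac
A read elsewhere in the coding sequence fits both copies, and only its mate can then tell them apart. Levels of a single globin gene are therefore uncertain, and sums over the copies less so. Lyz2 shares 89 of 1248 windows (7.13%) with Lyz1, the lysozyme gene of Paneth cells, whereas S100a8, S100a9, Camp, Ngp, Igha and Igkc share 0 windows with any other gene.

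The 10 transcripts were a small part of each library. Together they took 2746 to 10065 counts per library, or 0.00729% to 0.0309% of all counts. All but Igha and Igkc had counts in every library. In bulk RNA, fewer blood cells and less RNA per cell cannot be told apart. The sum was lowest in CTR4 (73.5 CPM) and highest in CTR3 (311.4 CPM), with 122.4 in CTR2, 264.8 in CTR1, and 150.8 to 263.7 in cKO. The plot of summed levels shows that libraries with like sums differed in their makeup. Globins made up 33.4% of the members' counts in CTR3, 40.6% in cKO2, 51.5% in CTR1 and 60.4% to 75.1% in the other 5 libraries. In CTR3, Igha and Igkc took 56.3%, against 0 to 1.83% elsewhere. In cKO2 and CTR1 the 4 neutrophil genes took 48.0% and 39.0%, against 8.32% to 29.8% elsewhere.

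**Figure D1:**
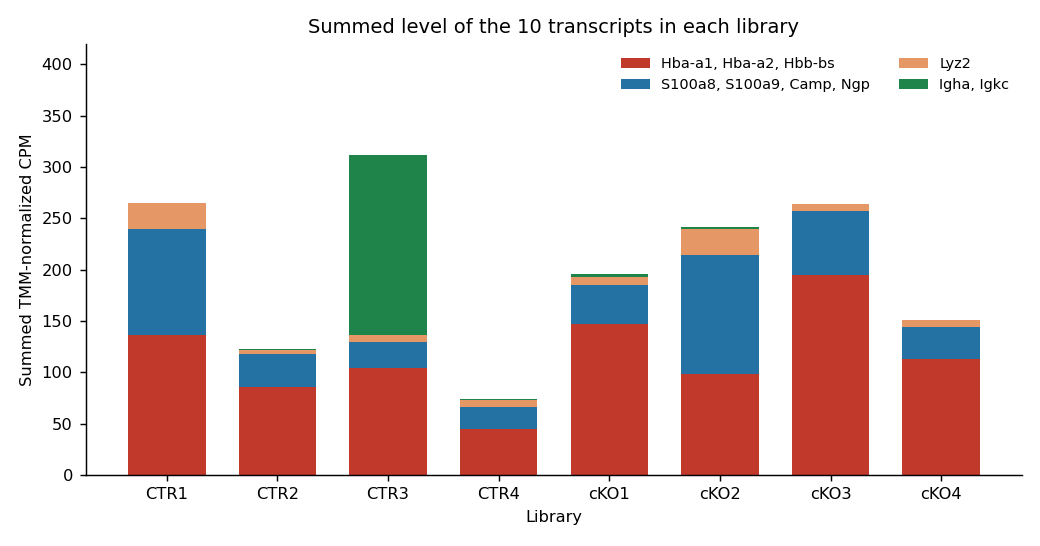
Summed TMM-normalized CPM (y axis) of the 3 globin genes, the 4 neutrophil genes, Lyz2 and the 2 immunoglobulin genes in each of the 8 libraries (x axis), as stacked bars. Neutrophil genes and Lyz2 are thick in CTR1 and cKO2, immunoglobulin is thick only in CTR3 among these libraries, and globins run from 44.4 CPM in CTR4 to 195.1 CPM in cKO3.

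Globin mRNA was present in every library and varied as a unit, and Hbb-bs had the highest level of the members per kilobase of exon in 7 of the 8 libraries. Hbb-bs (ENSMUSG00000052305, GRCm38 chromosome 7 from 103826534 to 103828096 on the minus strand, 768 exonic bases) encodes an adult β chain. It had 77.4, 44.9, 57.2 and 25.4 CPM in CTR1 to CTR4 and 87.2, 49.9, 114.0 and 61.7 CPM in cKO1 to cKO4. CTR4 was the lowest of all libraries and cKO3 the highest, 4.49 times apart, and the genotypes overlapped. Per kilobase of exon, Hbb-bs had a mean level of 84.3 CPM, which ranks it 457 among the genes of the table. CTR averaged 51.2 ± 21.8 CPM (SD, n = 4) and cKO 78.2 ± 28.5 CPM (SD, n = 4). The quasi-likelihood test of edgeR over 21310 genes gave a log2 fold change of 0.61 with a standard error of 0.34 and a Benjamini-Hochberg adjusted p of 0.864, so that the difference did not pass the threshold. The two-sided exact permutation test gave p = 0.20, where 4 mice against 4 allow no p below 0.0286.

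Hba-a1 (ENSMUSG00000069919, chromosome 11 from 32283511 to 32284465 on the plus strand, 812 exonic bases), an α-globin gene, had 45.4, 32.2, 36.1 and 15.5 CPM in CTR1 to CTR4 and 46.3, 37.1, 61.5 and 40.7 CPM in cKO1 to cKO4. Its copy Hba-a2 (ENSMUSG00000069917, chromosome 11 from 32296489 to 32297298 on the plus strand, 667 exonic bases) had 13.8, 8.13, 10.7 and 3.53 CPM in CTR1 to CTR4 and 13.8, 11.1, 19.5 and 10.9 CPM in cKO1 to cKO4. Again CTR4 was lowest and cKO3 highest, and every other library lay between with both genotypes mixed. The log2 fold changes were 0.52 (standard error 0.29, adjusted p = 0.865) for Hba-a1 and 0.61 (standard error 0.38, adjusted p = 0.974) for Hba-a2 in edgeR. Means were 32.3 ± 12.5 CPM in CTR and 46.4 ± 10.7 CPM in cKO for Hba-a1, and 9.04 ± 4.34 and 13.8 ± 4.02 CPM for Hba-a2 (SD, n = 4 each).

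Between libraries, the proportions among the globins moved less than their level. Hba-a1 had 3.15 to 4.38 times the counts of Hba-a2, and the β genes Hbb-bs and Hbb-bt together had 1.20 to 1.71 times the counts of the α genes. Over the same libraries the summed level of the 4 globin genes moved 4.32-fold, from 49.7 CPM in CTR4 to 214.7 CPM in cKO3. Over the 8 libraries, log2 CPM of Hba-a1 and Hbb-bs correlated with Pearson's r = 0.97 and Spearman's rho = 0.98 (two-sided exact permutation p = 7.44e-05 and 0.000397, adjusted over 45 pairs of members 0.00335 and 0.0171). Hba-a1 and Hba-a2 gave r = 0.99 and rho = 0.95 (exact permutation p = 0.000149 and 0.00114, adjusted 0.00335 and 0.0171), and Hba-a2 and Hbb-bs gave r = 0.97 and rho = 0.90 (p = 0.000248 and 0.00456, adjusted 0.00372 and 0.0411). Leaving out CTR4 and cKO3, the libraries farthest from the median, left r at 0.96, 0.95 and 0.91 in the same order. Hba-a1 shares 69.0% of its read-length windows with Hba-a2, and Hba-a2 shares 85.8% of its own with Hba-a1. The counts of this pair may therefore not be separate measurements. Each title number group holds 4 libraries, too few for a value within it. Of the 45 pairs, 11 passed 0.05 after adjustment by Pearson's r and 5 by Spearman's rho, and 0 pairs passed by rho when CTR2, CTR4 or cKO1 was left out. In the 6 libraries other than CTR1 and cKO2, a choice made after the data were seen, 3 pairs passed by either measure. They were the globin pairs, which had the lowest p-values of all. Their exact permutation p was 0.00139 each by Pearson's r, the smallest that 6 libraries allow, and 0.00278 each by Spearman's rho.

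The upstream regions of the globin genes share the same short motifs, which are shown for Hba-a1 and Hbb-bs because these genes moved together. The 250 bases before the RefSeq start site (GRCm38.p6) hold matches, in capitals, to AGATAA, which GATA factors bind, to CCAAT, to the Krüppel-like factor motif CACCC or to TATAA, searched on both strands. They lie at chr11:32283422-32283671 on the plus strand for Hba-a1 and at chr7:103827929-103828178 on the minus strand for Hbb-bs.
Hba-a1: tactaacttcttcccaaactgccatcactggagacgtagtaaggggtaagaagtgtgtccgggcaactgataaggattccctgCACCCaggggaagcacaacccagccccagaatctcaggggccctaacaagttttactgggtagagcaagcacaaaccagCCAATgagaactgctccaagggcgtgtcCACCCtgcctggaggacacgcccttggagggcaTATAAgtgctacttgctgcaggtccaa
Hbb-bs: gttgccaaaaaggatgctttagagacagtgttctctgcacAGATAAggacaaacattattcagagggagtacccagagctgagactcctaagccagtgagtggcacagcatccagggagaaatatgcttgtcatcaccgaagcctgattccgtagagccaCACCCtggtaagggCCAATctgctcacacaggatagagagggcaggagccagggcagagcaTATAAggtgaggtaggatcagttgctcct
Hba-a1, Hba-a2, Hbb-bs and Hbb-bt each hold a match to CCAAT, another to CACCC and another to TATAA. The match to TATAA nearest the start begins 27 to 30 bases before it in these genes, and Hbb-bt holds another farther upstream on the minus strand. Of 32851 upstream regions of the same length, 33.8% hold CCAAT, 52.0% CACCC and 22.8% TATAA, so that each motif alone is common. AGATAA, which 9.99% of the regions hold, occurs in Hbb-bs and in none of the other 3. Only this exact string was searched, and the region of Hba-a1 holds tgataa, which differs from it in the first base. The absence of AGATAA is thus not the absence of every GATA motif. A match describes letters and does not show a bound factor.

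Other erythroid genes were not called either. The list of erythroid genes had 20 of 21 genes matched (Ahsp was not analysed here), and 0 of the 20 tested rose or fell between genotypes. Its summed level was 63.6 to 152.3 CPM in CTR and 124.9 to 155.2 CPM in cKO. Without Hbb-bt, the globin gene on this list, the sum was lowest in CTR4 (58.3 CPM) and highest in CTR2 (142.6 CPM), with 135.5 CPM in cKO3. Slc4a1, the anion exchanger of the red cell membrane, had 762, 558, 749 and 239 counts in CTR1 to CTR4 and 741, 719, 1112 and 814 counts in cKO1 to cKO4. Alas2, the erythroid enzyme that starts heme synthesis, had 152 to 363 counts, with its lowest values in CTR4 (152) and cKO4 (153). Car1, a carbonic anhydrase of erythroid progenitors, had 187 to 906 with its highest value in CTR2. Epor, the erythropoietin receptor, did not overlap between the genotypes, at 513 to 550 counts for CTR and 655 to 899 for cKO (log2 fold change 0.41, adjusted p = 0.848 in edgeR). After scaling the groups nearly met, at 13.7 to 16.96 CPM for CTR and 17.09 to 27.4 CPM for cKO. Non-overlap between genotypes occurred in 2.41% of all genes tested, and in 0 of the 10 members.

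The genes of neutrophil secondary granules followed a different pattern, with a high level in the same 2 libraries, CTR1 and cKO2, 1 of each genotype. Ngp (ENSMUSG00000032484, chromosome 9 from 110419747 to 110423012 on the plus strand, 1222 exonic bases) had 34.7, 8.28, 6.59 and 5.14 CPM in CTR1 to CTR4 and 7.55, 47.6, 9.06 and 5.401 CPM in cKO1 to cKO4. Camp (ENSMUSG00000038357, chromosome 9 from 109847379 to 109849617 on the minus strand, 758 exonic bases) had 17.6, 2.41, 1.73 and 1.498 CPM in CTR1 to CTR4 and 4.66, 12.4, 3.23 and 3.37 CPM in cKO1 to cKO4. For both genes CTR1 and cKO2 lay above the 6 other libraries. These genes lie on the same chromosome and share no read-length window, so that their counts are separate measurements.

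Lyz2 (ENSMUSG00000069516, chromosome 10 from 117277331 to 117282321 on the minus strand, 1316 exonic bases) had 25.1, 4.29, 6.10 and 6.53 CPM in CTR1 to CTR4 and 7.18, 25.5, 6.82 and 6.24 CPM in cKO1 to cKO4. It too was high in CTR1 and cKO2, and its 6 other values lay between 4.29 and 7.18 CPM. Other genes on the list of neutrophil genes did the same. Ltf, which encodes lactoferrin, had 652 counts in CTR1, 888 in cKO2 and 0 to 150 elsewhere. Chil3, a chitinase-like protein of neutrophils and macrophages, had 355 and 519 counts against 0 to 84, and Lcn2, which encodes the iron-siderophore binder lipocalin-2, had 307 and 403 against 26 to 100. The summed level of Ltf, Camp, Ngp, Lcn2 and Chil3 was 94.96 CPM in CTR1 and 111.2 CPM in cKO2, against 11.05 to 18.4 CPM in the other 6 libraries.

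In a search made after these values were seen, 7 of the 13424 genes that averaged 1 CPM or more were more than 2-fold higher in CTR1 and in cKO2 than in any other library. They were Ngp, Lyz2, Ltf, Camp, Chil3, Lcn2 and Sept2, a septin of the cytoskeleton, with 5954 and 6472 counts of Sept2 against 429 to 2185. CTR1 and cKO2 belong to different title number groups, 67 to 86 and 26 to 32.

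S100a8 and S100a9, which lie next to each other on chromosome 3, differed from the granule genes in cKO3. S100a8 (ENSMUSG00000056054, 90668978 to 90670035 on the plus strand, 694 exonic bases) had 22.8, 10.7, 7.33 and 8.19 CPM in CTR1 to CTR4 and 14.2, 27.9, 24.4 and 11.3 CPM in cKO1 to cKO4. S100a9 (ENSMUSG00000056071, 90692632 to 90695721 on the minus strand, 522 exonic bases) had 28.1, 10.7, 10.2 and 7.04 CPM in CTR1 to CTR4 and 11.7, 28.2, 25.1 and 10.9 CPM in cKO1 to cKO4. Both were high in cKO3 as well as in CTR1 and cKO2, whereas Ngp, Camp and Lyz2 in cKO3 were among the 6 low values. The counts of S100a9 were 0.822 to 1.40 times those of S100a8. Ngp had 1.52 times the counts of S100a8 in CTR1 and 1.70 times in cKO2, against 0.371 in cKO3 and 0.476 to 0.899 in the remaining 5 libraries. Transcripts of the 2 kinds therefore did not keep a fixed proportion between libraries.

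**Figure D2:**
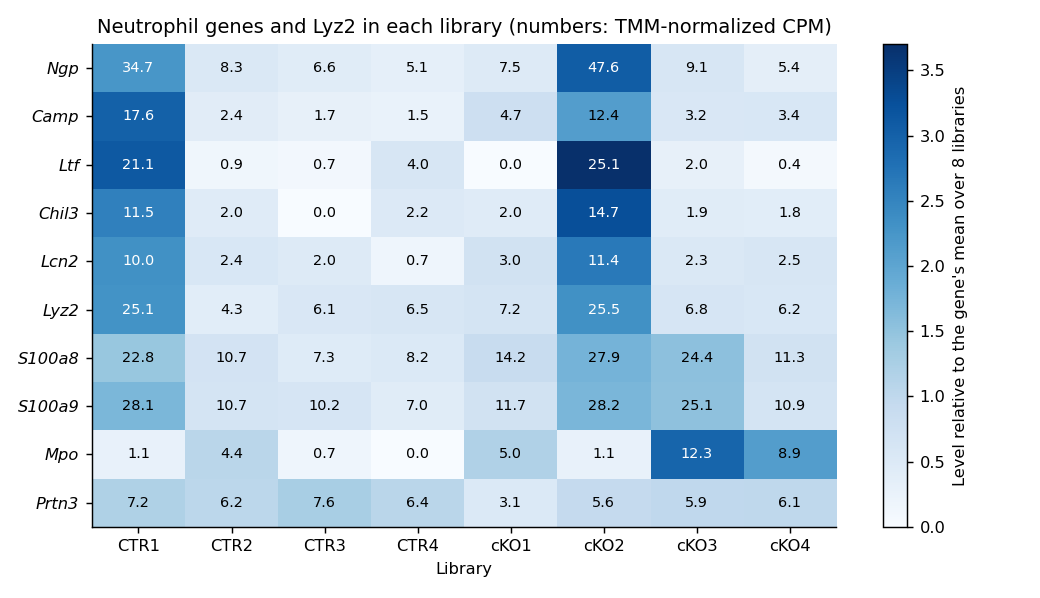
Level of 9 neutrophil genes and Lyz2 (rows) in each library (columns), with TMM-normalized CPM written in the cells and color giving the level relative to the gene's mean over 8 libraries. The rows from Ngp to Lyz2 are dark in CTR1 and cKO2, those of S100a8 and S100a9 also in cKO3, and Mpo is dark in cKO3 (12.3 CPM) and cKO4 (8.87 CPM).

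Genes of primary granules, which form earlier in granulocyte development, were not high in CTR1 and cKO2. Mpo, which encodes myeloperoxidase, had 35, 146, 23 and 0 counts in CTR1 to CTR4 and 163, 40, 402 and 340 in cKO1 to cKO4 (log2 fold change 2.12, standard error 1.11, adjusted p = 0.848 in edgeR). Prtn3, a serine protease, had 102 to 247 counts in all 8 libraries. The summed level of Mpo, Elane, Prtn3 and Ctsg was 11.3 CPM in CTR1 and 7.79 CPM in cKO2, within the range of 6.42 to 21.6 CPM of the other 6. Many other genes of mature neutrophils were at or near 0: Ly6g had 0 to 15 counts, Csf3r 0 to 35, Cxcr2 0 to 9, Itgam 0 to 7, Mmp8 0 to 12 and Retnlg 0 to 7. Mmp9, the gelatinase of late granules, was not among them, with 163, 331, 100 and 240 counts in CTR1 to CTR4 and 25, 29, 213 and 301 in cKO1 to cKO4, so that it was low in cKO2. Cd177, a neutrophil surface protein, had 102 counts in CTR1, 107 in cKO2 and 0 to 51 elsewhere. The neutrophil list summed to 17.1 to 67.5 CPM in CTR and 17.6 to 70.7 CPM in cKO, with 0 of 18 genes tested called in either direction.

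The upstream region of Ngp is shown because it leads this group. The 250 bases before its RefSeq start site (GRCm38.p6 chr9:110419558-110419807, plus strand) hold 3 matches, in capitals, to TTNNGNAA, a C/EBP motif in which N is any base, and none to GAGGAA or TATAA.
Ngp: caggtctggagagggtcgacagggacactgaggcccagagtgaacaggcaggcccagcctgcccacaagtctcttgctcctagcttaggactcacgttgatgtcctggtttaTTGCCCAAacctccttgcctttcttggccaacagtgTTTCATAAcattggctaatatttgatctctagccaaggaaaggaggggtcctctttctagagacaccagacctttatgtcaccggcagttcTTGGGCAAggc
TTNNGNAA occurs in 36.8% and GAGGAA, the core bound by PU.1, in 23.3% of the 32851 upstream regions. Lyz2 holds 1 match to TTNNGNAA, S100a8 has 1 and S100a9 has 2, whereas Camp holds none in this window. S100a8 also holds 2 matches to GAGGAA. A stretch without a match shows only that these letters are missing from it.

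Between genotypes, no neutrophil gene among the members passed the test. The log2 fold changes in edgeR were 0.67 for S100a8 (standard error 0.41, adjusted p = 0.961), 0.44 for S100a9 (0.46, 1.00), 0.03 for Camp (0.82, 1.00), 0.35 for Ngp (0.80, 1.00) and 0.12 for Lyz2 (0.64, 1.00), with the standard error and the adjusted p in parentheses. For Ngp, CTR averaged 13.7 ± 14.1 CPM and cKO 17.4 ± 20.2 CPM (SD, n = 4 each), so that the spread in each genotype was larger than the mean. For Lyz2 they were 10.5 ± 9.78 and 11.4 ± 9.37 CPM (SD, n = 4 each). The sign of Camp, Ngp and Lyz2 changed with single libraries. Without cKO2 their log2 fold changes were -0.63, -0.90 and -0.64, and without CTR1 they were 1.66, 1.39 and 1.02. Camp and Lyz2 were also below 0 without CTR2, CTR3 or CTR4. With both left out they were 0.99, 0.14 and 0.26, none past the threshold. Within title numbers 26 to 32 the difference of mean log2 CPM was 1.29 for Ngp, 1.74 for Camp and 1.24 for Lyz2, and within 67 to 86 it was -0.87, -0.52 and -0.82. The test of that difference between title number groups gave an adjusted p of 1.00 in edgeR for each of the 3 genes, with an unadjusted p of 0.0465 for Ngp, 0.0465 for Camp and 0.0370 for Lyz2. It called 0 of all genes, with 721 at an unadjusted p under 0.05.

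Lyz2 is also a macrophage gene, so the other macrophage and monocyte genes are given beside it. Their summed level was 51.7 CPM in CTR1 and 60.1 CPM in cKO2, inside the range of 42.6 to 76.2 CPM of the other libraries. Fcer1g, an Fc receptor subunit of several myeloid cells, had 515 to 800 counts, and Csf1r, the receptor for macrophage colony-stimulating factor, was at 4.79 to 9.13 CPM for CTR and 8.01 to 11.4 CPM for cKO, with overlap between the genotypes (log2 fold change 0.43, adjusted p = 0.915 in edgeR). C1qa had 46 to 224 counts and C1qb 42 to 306, both subunits of complement C1q and highest in cKO3 and cKO1 respectively. Adgre1, which encodes F4/80, had 0, 0, 82 and 0 counts in CTR1 to CTR4 and 50, 22, 80 and 70 in cKO1 to cKO4. Mpeg1 had 31 to 167 counts, and Fcgr1 had 0 in every CTR library and 19, 11, 0 and 3 in cKO1 to cKO4. None of the 20 genes tested was called. At an unadjusted p under 0.05 in edgeR there were 2 of them between genotypes, beside 4.56% of all genes. Between title number groups there were 3, beside 8.71% of all genes.

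The immunoglobulin genes were near 0 in 7 libraries and high in 1. Igha (ENSMUSG00000095079, chromosome 12 from 113254830 to 113260236 on the minus strand, 2668 exonic bases) had 0, 5, 2945 and 0 counts in CTR1 to CTR4 and 38, 0, 0 and 0 in cKO1 to cKO4. In the 5 libraries without a count, up to 3 counts could have been missed, which is at most 0.0966 CPM. Igkc (ENSMUSG00000076609, chromosome 6 from 70726435 to 70726966 on the plus strand, 532 exonic bases) had 0, 20, 2726 and 26 counts in CTR1 to CTR4 and 80, 71, 0 and 10 in cKO1 to cKO4. Both therefore stood apart in CTR3, at 91.1 CPM for Igha and 84.4 CPM for Igkc, 78.8 and 34.6 times the next highest library.

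Other plasma cell genes were high in CTR3 too. Jchain, which joins IgA and IgM into polymers, had 747 counts there and 0 to 19 elsewhere. Mzb1, an endoplasmic reticulum chaperone for immunoglobulin, had 99 against 0 to 9, and Ighm, the IgM heavy chain, had 329 against 0 to 50. Not every marker was present: Tnfrsf17, which encodes the plasma cell receptor BCMA, had 0 counts in all 8 libraries, and Prdm1, a regulator of plasma cells, had 5 counts in CTR2 and 0 elsewhere. Cd79a, a subunit of the B cell receptor, had 68 counts in CTR3 and 38 in CTR2. The list of B and plasma cell genes summed to 48.6 CPM in CTR3, against 1.40 to 5.85 CPM in the other 7 libraries, and 4 of its 25 genes were at 0 in all libraries.

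In CTR3 the variable (V) segments were nearly those of a single pair of chains. Each plasma cell clone joins 1 heavy and 1 light V segment to its constant regions, so that many clones give many V segments. Of the 348 V segments in the table, 9 had a count in CTR3, with 1844 counts in all, and the other libraries had 0 to 29 V counts. Igkv12-98 (chromosome 6 from 68570763 to 68571235, plus strand) had 1346 of the 1349 κ V counts in CTR3, or 99.8% (95% Wilson interval 99.4 to 99.9). Ighv1-69 (chromosome 12 from 115623161 to 115623595, minus strand) had 436 of the 491 heavy-chain V counts, or 88.8% (85.7 to 91.3). Both had 0 counts in every other library. Intervals and floors cover counting error only.

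The germline V exon of Igkv12-98 is printed with that of Igkv12-89, which had 26 of the 29 V counts of cKO2, to show that reads tell these family members apart. Bases that differ between them are in capitals (GRCm38 chr6:68570938-68571235 on the plus strand and chr6:68834846-68835143 on the minus strand, GENCODE M21). The heavy-chain V exon of Ighv1-69 is given by its first 300 bases (chr12:115623166-115623465, minus strand).
Igkv12-98: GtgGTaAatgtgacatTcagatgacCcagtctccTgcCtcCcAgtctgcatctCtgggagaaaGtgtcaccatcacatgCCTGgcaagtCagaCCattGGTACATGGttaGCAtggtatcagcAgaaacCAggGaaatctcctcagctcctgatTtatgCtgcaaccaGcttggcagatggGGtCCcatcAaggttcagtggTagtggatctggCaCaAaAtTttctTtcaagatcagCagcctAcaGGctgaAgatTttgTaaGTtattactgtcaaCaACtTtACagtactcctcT
Igkv12-89: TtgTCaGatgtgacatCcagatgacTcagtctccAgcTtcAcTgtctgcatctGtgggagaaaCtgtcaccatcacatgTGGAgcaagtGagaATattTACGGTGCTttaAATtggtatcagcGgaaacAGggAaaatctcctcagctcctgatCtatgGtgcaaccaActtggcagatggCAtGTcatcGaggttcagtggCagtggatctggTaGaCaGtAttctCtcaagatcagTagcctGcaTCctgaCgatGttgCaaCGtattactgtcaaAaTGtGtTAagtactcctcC
Ighv1-69: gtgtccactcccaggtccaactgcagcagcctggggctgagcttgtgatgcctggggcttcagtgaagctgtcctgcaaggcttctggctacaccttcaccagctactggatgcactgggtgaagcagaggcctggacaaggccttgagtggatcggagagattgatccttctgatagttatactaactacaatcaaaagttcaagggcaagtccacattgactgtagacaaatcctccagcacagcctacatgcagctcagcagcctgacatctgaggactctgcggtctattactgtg
Igkv12-98 and Igkv12-89 are the same in 232 of 298 bases (77.9%), with at most 20 identical bases in a row, and Igkv12-98 shares 0 of its windows of 69 bases with any other gene. Ighv1-69 shares 66 of 328 windows (20.1%) with other genes, among them Ighv1-53 and Ighv1-74, so that part of its reads may be counted elsewhere. These are reference sequences, and a rearranged gene can carry mutations that are not visible in counts.

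**Figure D3:**
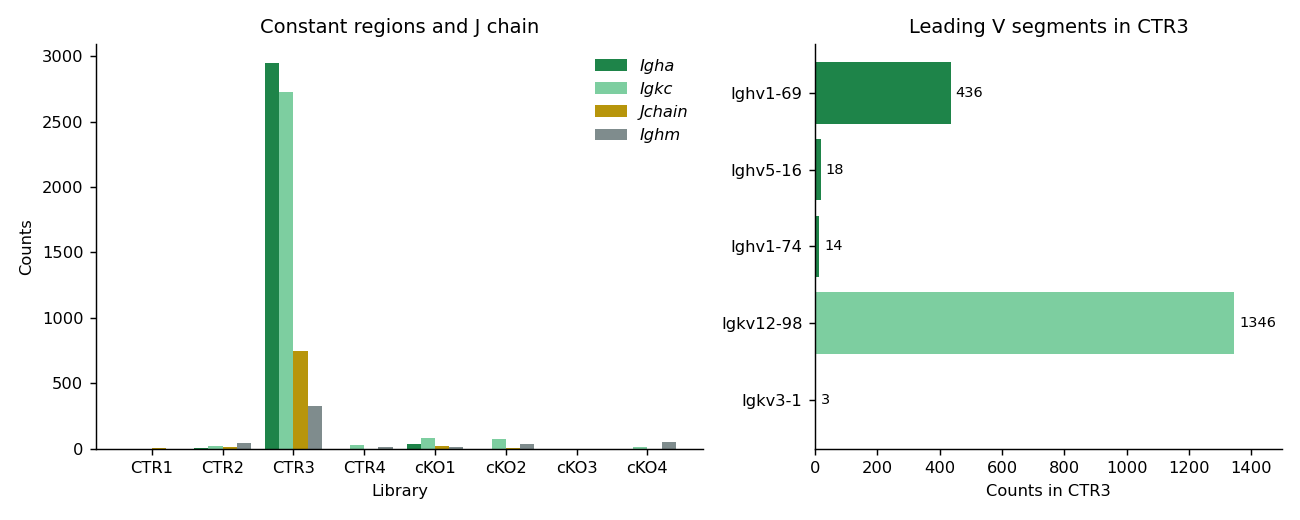
Left, counts of Igha, Igkc, Jchain and Ighm (y axis) in each library (x axis). Right, counts in CTR3 of the leading heavy-chain (Ighv) and κ (Igkv) V segments, of which Igkv12-98 has 1346 and Ighv1-69 has 436. The bars of CTR3 stand alone on the left, and a single segment of each chain leads on the right.

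The genotype difference of these genes rested on CTR3. The log2 fold change was -6.32 for Igha (standard error 2.54, unadjusted p = 0.0325 and adjusted p = 0.848 in edgeR) and -4.19 for Igkc (1.95, 0.0582 and 0.848). Without CTR3 the values were 2.43 and 1.43, with the opposite sign. Igkc averaged 21.4 ± 42.0 CPM for CTR and 1.18 ± 1.22 CPM for cKO (SD, n = 4 each), so that the SD was larger than the mean in each genotype.

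Over all members, edgeR called 0 of 10 between genotypes. The same test called 1 of all 21310 genes tested (0.00469%), G430095P16Rik, and 971 had an unadjusted p under 0.05 (4.56%), among them 1 member, Igha. The log2 fold change was above 0 for 8 of the 10 members, with a median of 0.39, beside 49.7% of all genes tested and a median of -0.0025 over them. Members of a lineage can come from the same cells and do not count as separate observations. The fitted differences are plotted with their standard errors.

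**Figure D4:**
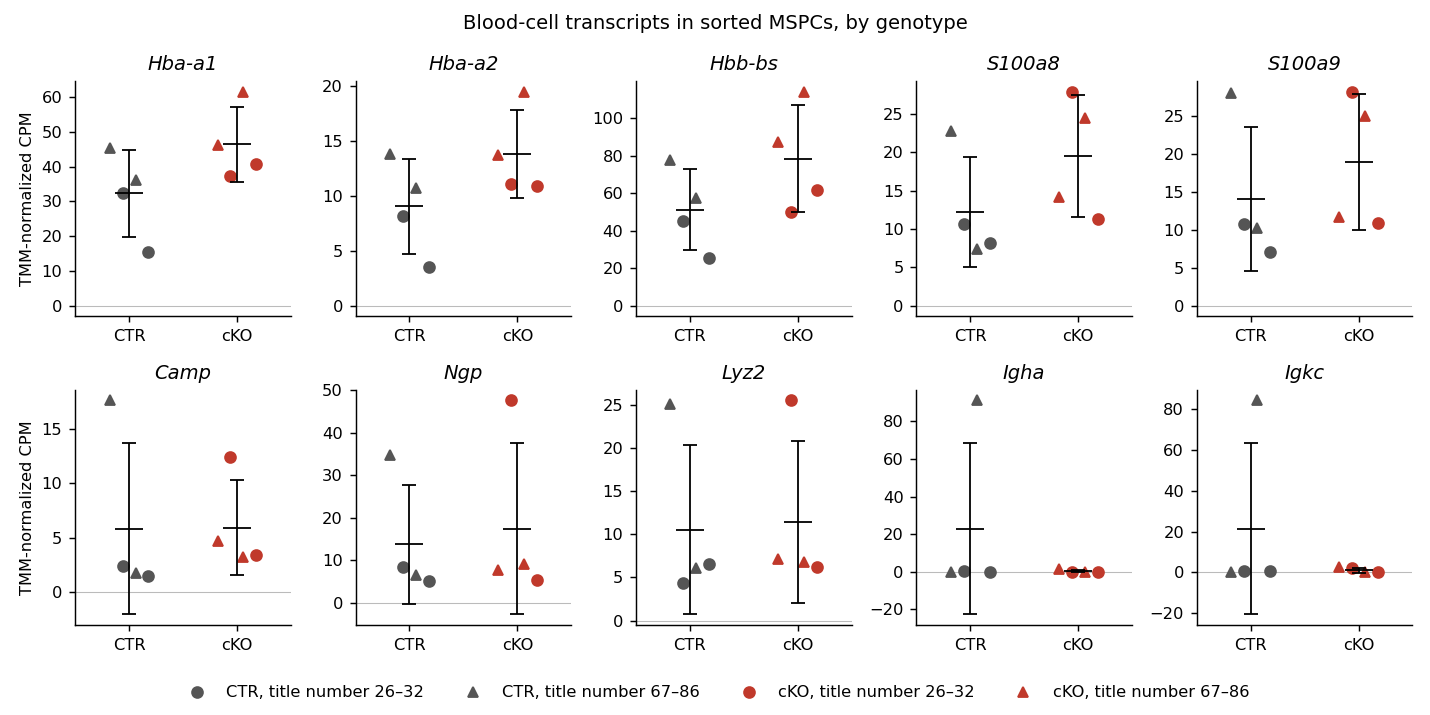
TMM-normalized CPM (y axis, linear, its own scale in each panel) of each member in CTR and cKO libraries (x axis). Points are libraries, circles and triangles mark title numbers 26 to 32 and 67 to 86, and black bars give the mean ± SD of 4 libraries (a bar reaches below 0 where the SD is larger than the mean). In every panel the points of CTR and cKO overlap.

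**Figure D5:**
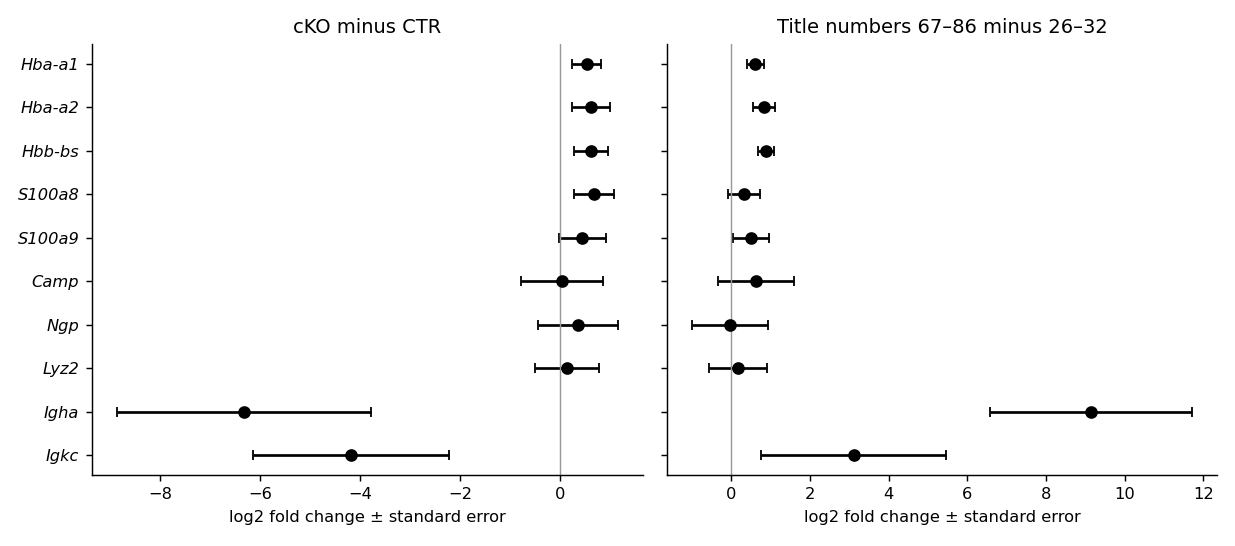
Log2 fold change ± standard error (x axis) from edgeR for each member (y axis), left for cKO minus CTR and right for title numbers 67 to 86 minus 26 to 32. The 3 globin genes lie above 0 in both panels, by 0.52 to 0.61 on the left and 0.62 to 0.89 on the right, and Igha and Igkc have by far the widest errors among the members.

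The globins were higher in title numbers 67 to 86 on average, though not past the adjusted threshold. In a fit with genotype as a term, Hbb-bs was higher in 67 to 86 by a log2 value of 0.89 (standard error 0.20, unadjusted p = 0.00144, adjusted p = 0.294 in edgeR). Its mean was 45.5 ± 15.1 CPM in 26 to 32 and 83.9 ± 23.6 CPM in 67 to 86 (SD, n = 4 each), and the groups overlapped because CTR3 (57.2 CPM) lay below cKO4 (61.7 CPM). Hba-a1 gave 0.62 (standard error 0.23, adjusted p = 0.509) and Hba-a2 gave 0.83 (0.28, 0.481). DESeq2's likelihood ratio test with both terms called Hbb-bs (log2 fold change 0.90, adjusted p = 0.0021), in a test that called 324 genes or 1.52% of those tested, and no other member. EdgeR called 0 of the 10 members and 2 of all genes (0.00939%), Cldn1 and Srgn. At an unadjusted p under 0.05 there were 4 members, the 3 globins and Igha, beside 8.71% of all genes, and 0 members but 5.62% of all genes did not overlap between the title number groups. For Igha this rested on CTR3, with 2945 counts there and 0 to 38 elsewhere (unadjusted p = 0.336 in edgeR without CTR3). Whether the number stands for a day, a litter or a cage cannot be told from the labels.

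Both genotypes are present in each title number group, so that genotype could be compared within them. The difference of mean log2 CPM between cKO and CTR was 0.72 in 26 to 32 and 0.58 in 67 to 86 for Hbb-bs, 0.80 and 0.40 for Hba-a1, and 1.02 and 0.43 for Hba-a2. For S100a8 it was 0.93 and 0.52, and for S100a9 1.01 and 0.01. Once the title number group was a covariate, edgeR gave 0.56, 0.68 and 0.62 for Hba-a1, Hba-a2 and Hbb-bs, and again called 0 members. The standard error of Hbb-bs was then 0.20, and the unadjusted p was 0.0358, 0.0404 and 0.0112 in the same order, with an adjusted p of 0.965 for each. In that fit 4 members, the 3 globins and Igha, had an unadjusted p under 0.05, beside 889 of all genes (4.17%). Nearly all counts of Igha lay in CTR3, at 2945 against 0 to 38 elsewhere.

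Genes of other blood and vessel cells are given for comparison. Of 8 megakaryocyte genes, 6 were tested and 0 called, with sums of 2.98 to 11.2 CPM in CTR and 4.08 to 6.79 CPM in cKO. The T and NK cell list reached 0.305 CPM in CTR and 1.19 CPM in cKO, with 6 of 10 genes at 0 in all libraries, among them Cd3e. Mast cell, eosinophil and basophil genes were at 0 in all libraries but for 67 counts of Prg2, the eosinophil major basic protein, in cKO1. Of 9 endothelial genes tested 0 were called, with sums of 5.29 to 14.1 CPM in CTR and 6.28 to 9.95 CPM in cKO, led by Emcn at a mean of 3.16 CPM.

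Genes that most blood cells express gave sums of 86.2 to 117.5 CPM in CTR and 77.1 to 106.3 CPM in cKO, led by Arhgdib at a mean of 60.6 CPM. CTR4, the library lowest in globins, had the highest of these sums (117.5 CPM). Most of it came from Arhgdib (74.7 CPM) and Srgn (31.1 CPM), so that it does not describe the rest of the list. In this list Srgn, the proteoglycan serglycin of blood cell granules, was the gene called between title number groups (log2 fold change -1.40, adjusted p = 0.0464 in edgeR), with 575 to 1163 counts in 26 to 32 and 199 to 359 in 67 to 86. The share of these lists in any difference between members was not tested.

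The spread between libraries differed among the members. The SD of log2 CPM over the 8 libraries was 0.58 for Hba-a1, 0.66 for Hbb-bs, 0.72 for Hba-a2, 0.74 for S100a8, 0.78 for S100a9, 0.97 for Lyz2, 1.22 for Ngp, 1.26 for Camp, 3.38 for Igkc and 3.77 for Igha. The median over the 11672 tested genes with a mean of 1 to 100 CPM was 0.31, and all 10 members lay above it, with 5 of them above the 90th percentile of 0.90. By this SD globins were the steadiest of the members, with Hba-a2 close to S100a8, and immunoglobulin was the least steady. By the highest over the lowest library the order differed. Of the 8 members with counts in every library, S100a8 moved least (3.81-fold), against 3.98-fold for Hba-a1 and 5.52-fold for Hba-a2.

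The genes whose log2 CPM ran most like that of a member over the 8 libraries included its lineage partners and genes with small changes. For Hbb-bs the 5 highest of 13424 genes by Pearson's r were Ubl4a (0.97), Hba-a1 (0.97), Hba-a2 (0.97), Hbb-bt (0.97) and Thap11 (0.96), of which Ubl4a moved only between 1697 and 2098 counts. For S100a9 they were Rrnad1 (0.97), Mob2 (0.95), S100a8 (0.95), Twnk (0.94) and Gm44709 (0.94). For Lyz2 they were Dlst (0.98), Parg (0.95), Ngp (0.93), Gm12500 (0.93) and Rnpepl1 (0.93), and Dlst, a subunit of a mitochondrial dehydrogenase, had 3225 and 3929 counts in CTR1 and cKO2 against 1316 to 2133 elsewhere. For Igkc they were Mcm3ap (0.96), Csnk2a2 (0.93), Gtpbp3 (0.92), Wbp2 (0.92) and Serf1 (0.90). With 8 points and many genes searched, such values are a description of these libraries.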

How the data were processed

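RNA of MSPCs from 4 CTR and 4 cKO mice was sequenced as paired reads of 76 bases. Per the methods, the authors trimmed 7 bases from each read start and bases of low quality from its end. They aligned to GRCm38 (mm10) with HISAT2, counted with HTSeq-count and deposited raw counts per gene. Their strand and multi-mapping settings are not given in the sources used here. Symbols and coordinates came from GENCODE M21, which matched 52403 of 52636 identifiers. Among values from 4 to 19, 55.4% were odd, so counting intervals are approximate.

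The members and gene lists were chosen with earlier results of these data known. CPM use library totals (31047344 to 38216877 counts) scaled by TMM factors of 0.985 to 1.02. Genes with at least 10 counts in all libraries together were tested with edgeR 4.0.16 (R 4.3.3, quasi-likelihood, Benjamini-Hochberg, threshold 0.05), by genotype, or by title number group with genotype as a term. The fit was tested on simulated data. Correlations used log2 CPM (prior count 2) with exact permutations (scipy 1.17.1). Alternatives were other scalings and filters, DESeq2 1.42.0, limma-voom (limma 3.58.1), a title number term, a replicate block and libraries left out. Named genes are the members, Cxcr4, listed markers, the 2 highest genes of each list and those called, the 5 genes most like Hbb-bs, S100a9, Lyz2 and Igkc, and the leading V segments. Sept2, Epor, Dlst, Mmp9, Cd177 and the summed granule sets were picked after their values were seen. P-values measure the spread between mice. Some listed genes are not reported here.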

Additional observations from a re-analysis of the deposited data

Results flagged for a closer look

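Within a genotype of 4 libraries, the gap between the highest library and the next, divided by the range, passed Dixon's 95% limit for 5 members. For normally distributed values chance alone passes about 1 in 20 groups, and 20 groups were looked at, 2 for each member. The CPM were not transformed, so that this rate may not hold for them. Where a single library has counts, as for Igha in cKO, the ratio is 1 at any level. Camp was flagged in CTR1 (17.6 CPM) and in cKO2 (12.4 CPM), Ngp in CTR1 (34.7 CPM) and in cKO2 (47.6 CPM), and Lyz2 in CTR1 (25.1 CPM) and in cKO2 (25.5 CPM). Igha was flagged in CTR3 (91.1 CPM) and, with 38 counts against 0 in the other cKO libraries, in cKO1 (1.16 CPM). Igkc was flagged in CTR3 (84.4 CPM). These values rest on the same libraries, since Camp, Ngp and Lyz2 were high together, as were Igha and Igkc. No globin and neither S100a8 nor S100a9 was flagged.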

How the results depend on the processing

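Over 19 alternatives by genotype and 16 by title number group, a member's log2 fold change kept its direction and its side of the threshold in 317 of 346 cases, reversed in 24, had no p in 4 (Camp, Ngp, Igha and Igkc in DESeq2 by genotype) and passed the threshold in 1, Hbb-bs between title number groups in DESeq2 (1 member called). The globins, S100a8 and S100a9 did not reverse between genotypes in any alternative, but a library left out moved Hba-a1 from 0.29 to 0.74, Hba-a2 from 0.34 to 0.89, Hbb-bs from 0.37 to 0.88, S100a8 from 0.45 to 1.16 and S100a9 from 0.18 to 1.03. Between genotypes, leaving out a library moved Camp from -0.63 to 1.66, Ngp from -0.90 to 1.39, Lyz2 from -0.64 to 1.02, Igha from -12.6 to 2.43 and Igkc from -4.81 to 1.43. Camp was below 0 without CTR2 (-0.23), CTR3 (-0.27), CTR4 (-0.29) or cKO2 (-0.63), Lyz2 without CTR2 (-0.14), CTR3 (-0.06), CTR4 (-0.05) or cKO2 (-0.64) and Ngp without cKO2 (-0.90). Igha (2.43) and Igkc (1.43) reversed without CTR3.

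Between title number groups, leaving out a library moved Hba-a1 from 0.41 to 0.82, Hba-a2 from 0.59 to 1.04, S100a8 from -0.15 to 0.71, S100a9 from 0.03 to 0.97, Igha from 4.34 to 12.03, Camp from -0.67 to 1.42, Ngp from -0.99 to 1.21, Lyz2 from -0.62 to 0.96 and Igkc from -1.21 to 4.95. Without CTR1, S100a8 (-0.15), Camp (-0.67) and Lyz2 (-0.62) reversed. Lyz2 also reversed without CTR2 (-0.32) or CTR4 (-0.17), and Igkc without CTR3 (-1.21). Ngp, at -0.03 with all libraries, was above 0 without CTR3 (0.13), cKO1 (0.56), cKO2 (1.21) or cKO3 (0.50), and without CTR1 and cKO2 together (0.30). In limma-voom Ngp was at 0.076 and Igkc at -0.16. Without CTR1 and cKO2 together Igkc was at -5.00 between genotypes and 5.58 between title number groups. The cause was not tested.

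Genes called between genotypes were 0 with a count above 0 in every library (edgeR, 646 at an unadjusted p under 0.05), 28 with DESeq2, 42 with DESeq2 and the title number term, 0 to 1 with a library left out, and 0 without CTR1 and cKO2. Between title number groups they were 4 without a filter, 324 with DESeq2, 1 with limma-voom, 0 to 4 with a library left out and 0 without CTR1 and cKO2. The alternative without CTR1 and cKO2 was chosen after the data were seen. Adjusted correlations fell from 11 pairs to between 4 and 8 by Pearson's r and from 5 to between 0 and 3 by Spearman's rho with a library left out (0 without CTR2, CTR4 or cKO1), and to 3 by either without CTR1 and cKO2. These alternatives hold fewer samples.

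The replicate number, as a block, called 0 genes in edgeR (810 at an unadjusted p under 0.05) and 0 members, with Hbb-bs at 0.65 and Camp at 0.70. Deviations of samples with the same number correlated at 0.0542, 0.101, 0.0472 and -0.00196, and such samples also share a title number group. Pairs of a CTR and a cKO sample with different numbers gave 0.0118 to 0.0386 within a title number group and -0.0812 to -0.00959 across the groups. Whether samples with the same number share anything else was not tested. Igha and Igkc gave no value under the filter on every library. Depth limits Igha and Igkc, at 0 to 80 counts outside CTR3, and Camp, at 56 counts in CTR3 and CTR4.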

Other observations

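A count of genes with at least 100 counts in a library and more than 10 times the highest other library, made after the data were seen, found 8 genes in CTR3 and 0 to 3 in each of the other libraries. The 8 in CTR3 were Igha, Igkc, Igkv12-98, Jchain and Ighv1-69, which are immunoglobulin genes or join immunoglobulin chains, and C5ar2 (820 counts), the pseudogene Serpina3e-ps (749 counts) and Gm13372 (135 counts). C5ar2, a receptor for complement fragments, had 9 to 35 counts in the other libraries, and Serpina3e-ps had 0.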
